A study of Homo sapiens with 10 samples.

Results

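The 5 genes MET, MSRB3, TOMM20, BTG2 and SLC2A3 stood at different levels in the 2 control groups of an RNA sequencing experiment on RD cells. They were picked by symbol from 23228 genes in the deposited table, because earlier results of the same libraries had shown these differences. All 5 were found, and all 5 were among the 14761 genes that passed the filter on low counts. RD is a human cell line from rhabdomyosarcoma, a soft tissue tumour with features of immature skeletal muscle. Of its 10 libraries, 2 came from cells with a nonspecific siRNA (labelled scrambled), 2 with NRAS siRNA 1 and 2 with NRAS siRNA 2, each transfected with a lipid reagent at 10 nM and harvested after 48 h. A further 2 came from cells in DMSO and 2 from cells in 300 nM of the ERK inhibitor SCH772984 (spelled in more than 1 way in the labels), harvested after 24 h. Both control groups therefore differ in transfection, in vehicle and in harvest time, and these cannot be told apart. The labels name 1 cell line and do not say that replicates were separate cultures, so errors and p-values cover only how far these libraries differ, and that spread may be technical.

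A control siRNA is meant to engage the RNA interference machinery without lowering a chosen transcript, so that a knockdown can be read against it. Short RNAs are known to lower further transcripts through partial matches, above all of the seed at the guide strand's 5′ end, and transfection alone can change expression. A gene that is low in the control then appears raised by every siRNA compared with it, and a gene that is high in all transfected cells appears unchanged by them. The siRNA sequences were not analysed here, so no match to the genes was sought.

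The genes have different tasks. MET encodes the receptor tyrosine kinase for hepatocyte growth factor, a driver of migration and growth in muscle precursors. MSRB3 encodes an enzyme that reduces oxidised methionine. TOMM20 encodes a receptor of the mitochondrial outer membrane that takes in proteins with a targeting sequence. BTG2 encodes an antiproliferative protein that recruits the deadenylase complex to messenger RNA, and it is a p53 target and early response gene. SLC2A3 encodes GLUT3, a glucose transporter of high affinity.

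Promoters of 4 of the genes were in the RefSeq table on GRCh38.p14, and SLC2A3 was not matched there. They are shown because MET, MSRB3 and TOMM20 moved together across libraries while BTG2 followed another course. Each window of 300 bases holds the start near its 3′ end and is written 5′ to 3′, and for MSRB3 it is the first of 2 starts. Capitals mark matches on either strand to the GC box GGGCGG, the CCAAT box CCAAT, the E-box CACGTG and the ETS site CCGGAAGT.
MET chr7:116671946-116672245 (plus strand): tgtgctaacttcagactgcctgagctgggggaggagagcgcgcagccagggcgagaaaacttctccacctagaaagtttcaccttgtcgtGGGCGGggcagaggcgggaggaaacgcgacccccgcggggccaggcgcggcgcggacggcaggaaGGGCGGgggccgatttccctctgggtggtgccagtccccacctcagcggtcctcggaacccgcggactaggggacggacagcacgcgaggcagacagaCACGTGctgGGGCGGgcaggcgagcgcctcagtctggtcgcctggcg
MSRB3 chr12:65278433-65278732 (plus strand): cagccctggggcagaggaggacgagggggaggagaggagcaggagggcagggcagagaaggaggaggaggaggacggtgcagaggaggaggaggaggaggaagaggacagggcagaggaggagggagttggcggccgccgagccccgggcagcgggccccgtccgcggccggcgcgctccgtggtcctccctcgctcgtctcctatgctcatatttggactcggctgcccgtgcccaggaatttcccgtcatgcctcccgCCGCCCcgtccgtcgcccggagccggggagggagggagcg
TOMM20 chr1:235128788-235129087 (minus strand): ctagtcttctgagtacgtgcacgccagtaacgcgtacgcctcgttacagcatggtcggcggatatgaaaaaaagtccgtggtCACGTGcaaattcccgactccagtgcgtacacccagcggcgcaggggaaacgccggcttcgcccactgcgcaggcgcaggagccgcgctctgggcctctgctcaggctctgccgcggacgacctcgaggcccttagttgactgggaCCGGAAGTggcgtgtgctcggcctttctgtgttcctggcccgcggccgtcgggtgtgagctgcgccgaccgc
BTG2 chr1:203305269-203305568 (plus strand): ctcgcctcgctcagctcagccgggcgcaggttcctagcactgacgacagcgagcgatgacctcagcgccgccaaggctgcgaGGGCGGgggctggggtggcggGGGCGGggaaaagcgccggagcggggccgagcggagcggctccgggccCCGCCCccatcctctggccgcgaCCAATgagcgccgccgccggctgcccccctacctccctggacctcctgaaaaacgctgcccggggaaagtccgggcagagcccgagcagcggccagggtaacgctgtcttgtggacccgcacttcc
The MET window held 3 GC boxes and 1 E-box, that of MSRB3 held 1 GC box, that of TOMM20 held 1 E-box and 1 ETS site, and that of BTG2 held 3 GC boxes and 1 CCAAT box. None of the 4 motifs was in all 3 of the MET, MSRB3 and TOMM20 windows. Of 35114 RefSeq windows of this length, 45.0% held a GC box, 34.6% a CCAAT box, 7.26% an E-box and 4.14% the ETS site. The cAMP response element TGACGTCA (1.85% of windows) and the AP-1 site TGACTCA (4.95%) were in none of the 4 windows. The hypoxia response core ACGTG also lies inside the E-box, which reads the same on both strands and so counts as 2 matches. It was matched 2 times in MET, both in the E-box, and 3 times in TOMM20, of which 2 were in the E-box. Of all windows, 21.4% held it. These matches describe letters only, and no binding was measured.

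Levels are given as CPM, gene counts scaled to a common library size (edgeR CPM with its normalization factors). MET stood at 8.57 and 11.6 CPM in the nonspecific siRNA libraries. In DMSO it was at 18.0 and 24.9 CPM. With NRAS siRNA 1 it was at 22.9 and 26.8 CPM, with NRAS siRNA 2 at 26.3 and 26.1 CPM, and with the ERK inhibitor at 25.9 and 28.5 CPM. Both nonspecific siRNA libraries thus lay below the other 8, which spread from 18.0 to 28.5 CPM. Their mean was 40.5% of that of the other 8. After this gap, each group overlapped the next in the rising order DMSO, NRAS siRNA 1, NRAS siRNA 2 and ERK inhibitor, and neighbouring means differed by no more than the larger SD. The lower DMSO library, replicate 1, made DMSO the most spread group, at 21.5 ± 4.84 CPM (SD, n = 2).

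MSRB3 had 28.1 and 30.7 CPM with the nonspecific siRNA, against 66.5 and 67.6 CPM in DMSO. The level was 59.4 and 58.0 CPM with NRAS siRNA 1, 71.8 and 64.1 CPM with NRAS siRNA 2, and 64.2 and 68.3 CPM with the ERK inhibitor. Again the nonspecific siRNA libraries were the lowest of all, at 45.2% of the mean of the other 8. NRAS siRNA 1 came next, below the ranges of the remaining groups, while the ERK inhibitor, DMSO and NRAS siRNA 2 groups overlapped.

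TOMM20 was at 130 and 143 CPM with the nonspecific siRNA and at 255 and 269 CPM in DMSO. It was at 238 and 271 CPM with NRAS siRNA 1, at 245 and 248 CPM with NRAS siRNA 2, and at 235 and 238 CPM with the ERK inhibitor. The nonspecific siRNA mean was 54.6% of that of the other 8 libraries, which varied among themselves with a CV of 5.66%. The ERK inhibitor group was lowest of the rest, without overlap with NRAS siRNA 2, and the upper 3 groups overlapped in order.

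BTG2 showed another order. It was at 9.91 to 10.6 CPM in DMSO and at 14.9 to 16.7 CPM with the ERK inhibitor. The siRNA libraries were all higher, at 22.4 and 24.9 CPM with the nonspecific siRNA, 17.6 and 20.3 CPM with NRAS siRNA 1, and 18.8 and 27.4 CPM with NRAS siRNA 2. The highest library of all was replicate 2 of NRAS siRNA 2, not one of the nonspecific siRNA. NRAS siRNA 1, NRAS siRNA 2 and the nonspecific siRNA overlapped in that rising order, and the 6 siRNA libraries averaged 168% of the other 4.

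SLC2A3 was likewise higher in every siRNA library than in any other. It stood at 196 and 171 CPM with the nonspecific siRNA, at 155 and 164 CPM with NRAS siRNA 1, and at 166 and 175 CPM with NRAS siRNA 2. DMSO libraries had 92.0 and 86.6 CPM and ERK inhibitor libraries 39.3 and 38.6 CPM. The 6 siRNA libraries averaged 267% of the other 4, but these 4 fell into separate levels by group. Only the nonspecific siRNA and NRAS siRNA 2 groups overlapped.

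By library, then, the nonspecific siRNA libraries were the lowest for MET, MSRB3 and TOMM20, whereas all siRNA libraries were the highest for BTG2 and SLC2A3. Every siRNA library shares both transfection and the later harvest, and these cannot be told apart. BTG2 was also higher with the ERK inhibitor than in DMSO, without overlap. The first pattern, both nonspecific siRNA libraries below the other 8, was held by 4.36% of tested genes, and the second, all 6 siRNA libraries above the other 4, by 3.69%. The mirror patterns, nonspecific siRNA above the other 8 and siRNA below the other 4, were held by 4.48% and 1.91%. Since the genes were chosen on these levels, nothing is read from those shares. Across the 10 libraries, on log2 CPM, Pearson's r was 0.931 between MET and MSRB3, 0.923 between MET and TOMM20 and 0.958 between MSRB3 and TOMM20, as a description of points that share their libraries. BTG2 and SLC2A3 had r = 0.562 with each other and negative r with the other 3, from -0.53 to -0.32.

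**Figure D1:**
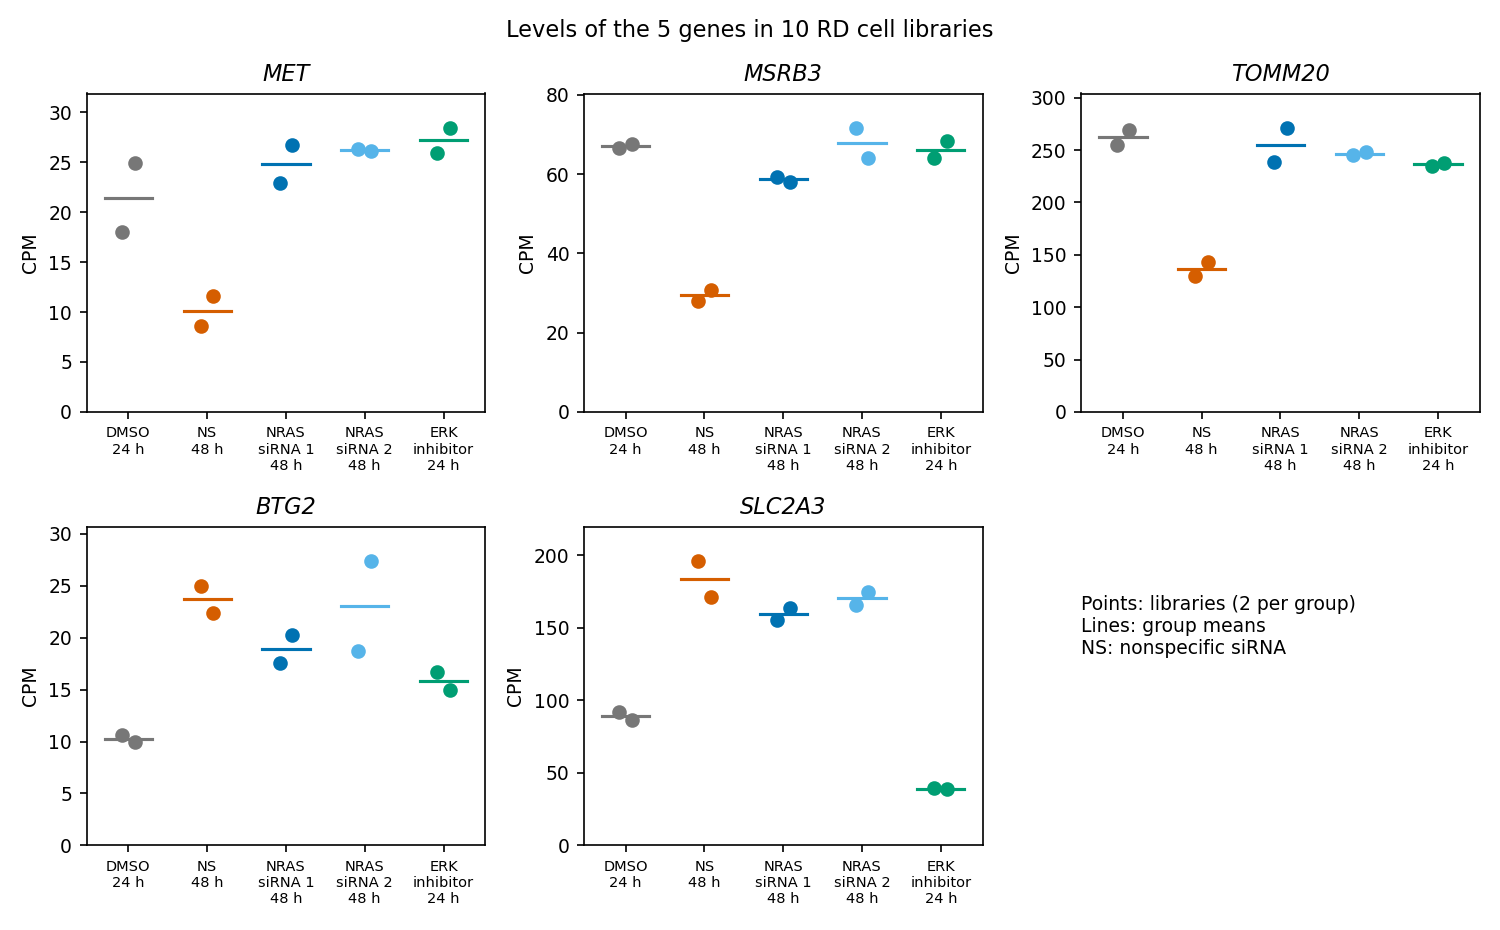
Level of each gene in CPM (vertical axes from 0) in the 10 libraries by group, with points for libraries and lines for group means. The 2 nonspecific siRNA libraries (NS) lie below the other 8 for MET, MSRB3 and TOMM20, and the 6 siRNA libraries lie above the other 4 for BTG2 and SLC2A3.

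The next question was how far a knockdown effect depends on the control it is read against. All log2 differences come from 1 edgeR fit of the 10 libraries. The comparisons in this and the next 3 paragraphs took part in choosing the genes or share libraries with that choice, so values are given with SE or 95% intervals and without a test. For nonspecific siRNA against DMSO, 0.379% of tested genes passed an adjusted p of 0.05, 40 higher (0.271%) and 16 lower (0.108%), and all 5 genes are among them by choice. The log2 difference was -1.09 (SE 0.19) for MET, -1.19 (SE 0.10) for MSRB3 and -0.94 (SE 0.09) for TOMM20. It was 1.21 (SE 0.18) for BTG2 and 1.04 (SE 0.09) for SLC2A3. No gene past the threshold had a lower value than MSRB3 or a higher one than BTG2. Genes that did not pass lay further out, 69 below MSRB3 and 93 above BTG2.

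Read against the nonspecific siRNA, MET, MSRB3 and TOMM20 were higher with either NRAS siRNA. MET differed by 1.30 (SE 0.19) with NRAS siRNA 1 and by 1.38 (SE 0.19) with NRAS siRNA 2. For MSRB3 the values were 1.00 (SE 0.10) and 1.21 (SE 0.10), and for TOMM20 0.90 (SE 0.09) and 0.85 (SE 0.09). These 3 genes are therefore among the calls for each NRAS siRNA, where 2.07% of tested genes passed with siRNA 1 (0.894% higher, 1.17% lower) and 6.43% with siRNA 2 (2.59% higher, 3.84% lower). Both comparisons use the same 2 nonspecific siRNA libraries, so their likeness is partly built in.

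Read against DMSO, the same NRAS siRNA libraries lay near zero for these genes. For MET the difference was 0.21 (95% interval -0.19 to 0.61) with NRAS siRNA 1 and 0.29 (-0.11 to 0.69) with NRAS siRNA 2. MSRB3 was at -0.19 (-0.41 to 0.02) and 0.02 (-0.19 to 0.23), and TOMM20 at -0.04 (-0.24 to 0.16) and -0.09 (-0.29 to 0.11). Every one of these 6 intervals spans 0, and none reaches the value that the same gene and siRNA had against the nonspecific siRNA. The genes were chosen for a nonspecific siRNA level apart from the other groups, so this was largely built in. The MET interval is the widest, and its value depends on the DMSO library used: with NRAS siRNA 1 it was 0.49 without DMSO replicate 2 and -0.0025 without DMSO replicate 1. With NRAS siRNA 2 it was 0.56 and 0.07 in the same order. DMSO libraries also differ from knockdown libraries in transfection and time, so a value near zero against DMSO is not by itself a measure of the NRAS effect.

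BTG2 and SLC2A3 gave the reverse picture. Against the nonspecific siRNA, BTG2 was at -0.32 (SE 0.18) with NRAS siRNA 1 and at -0.04 (SE 0.18) with NRAS siRNA 2, and SLC2A3 at -0.20 (SE 0.09) and -0.11 (SE 0.09). The intervals of these 4 values all span 0. Against DMSO, BTG2 was higher by 0.88 (0.48 to 1.29) with NRAS siRNA 1 and by 1.17 (0.76 to 1.57) with NRAS siRNA 2, and SLC2A3 by 0.84 (0.63 to 1.04) and 0.93 (0.72 to 1.14). A high level of these transcripts thus appeared with all 3 siRNAs. These levels too took part in the choice of the genes, so nothing is read from the intervals. For BTG2 with NRAS siRNA 2 the small value against the nonspecific siRNA changed sign with the library left out, -0.34 without replicate 2 of that siRNA and 0.21 without its replicate 1. For SLC2A3, leaving out nonspecific siRNA replicate 1 gave -0.08 with NRAS siRNA 1 and 0.01 with NRAS siRNA 2.

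**Figure D2:**
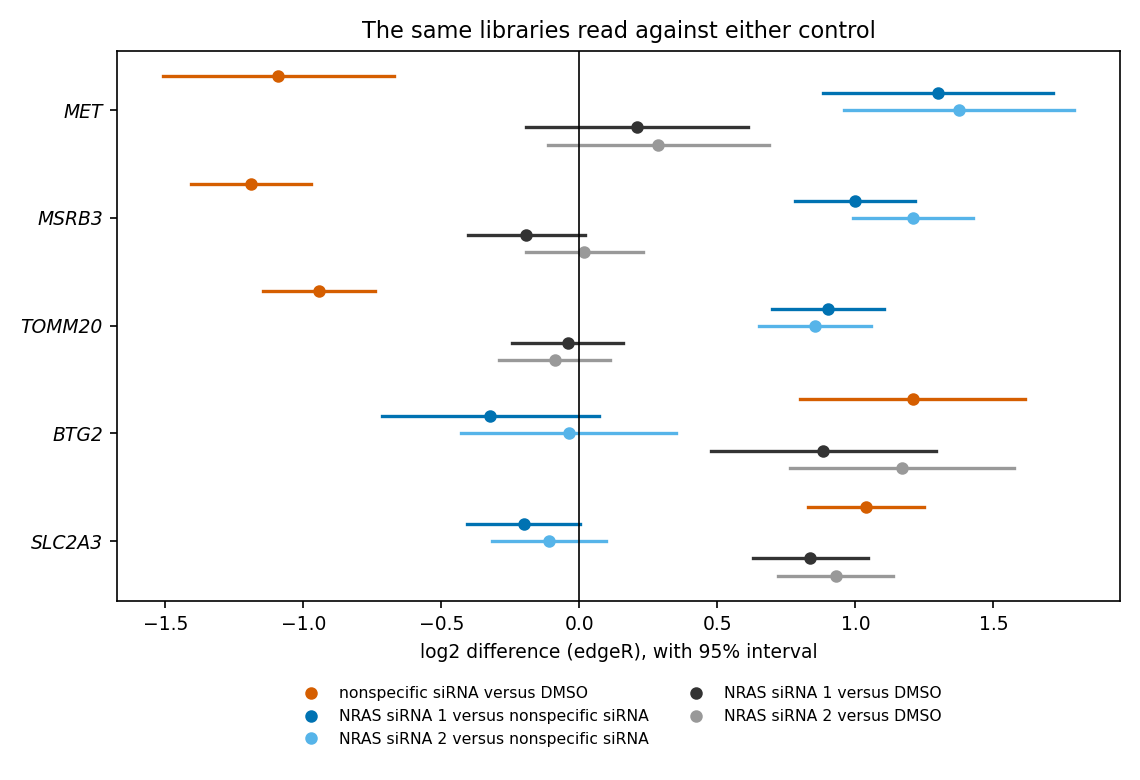
Log2 difference (horizontal axis) with its 95% interval for each gene when the same libraries are read against the nonspecific siRNA or against DMSO. For MET, MSRB3 and TOMM20 the values against the nonspecific siRNA lie between 0.85 and 1.38 and those against DMSO between -0.19 and 0.29, while BTG2 and SLC2A3 lie away from 0 only against DMSO.

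NRAS siRNA 1 against NRAS siRNA 2 leaves both controls out, but the levels with both siRNAs took part in the choice of the genes, so these values too are a description without a test. None of the 5 was among the calls, which were 0.427% of all tested genes (0.230% higher and 0.196% lower with siRNA 1), and nothing is read from that. The log2 difference was -0.08 for MET (95% interval -0.47 to 0.32) and -0.21 for MSRB3 (-0.42 to 0.00). It was 0.05 for TOMM20 (-0.15 to 0.25), -0.28 for BTG2 (-0.68 to 0.11) and -0.09 for SLC2A3 (-0.30 to 0.11). The intervals of MET and BTG2 are the widest, and that of BTG2 reaches -0.68. Single libraries set the sign of 3 of these small values. BTG2 was at 0.01 without NRAS siRNA 2 replicate 2 and at -0.53 without its replicate 1, TOMM20 at -0.05 without NRAS siRNA 1 replicate 2, and MET at 0.03 without NRAS siRNA 1 replicate 1.

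The ERK inhibitor against DMSO shows the genes with a drug against ERK, a kinase below NRAS, at 24 h and without transfection. That is another treatment than an NRAS siRNA at 48 h. The DMSO libraries of this comparison also took part in the choice of the genes, so these tests are not fully independent of it. A choice of genes low in DMSO, as BTG2 was, favours a higher value with the drug. SLC2A3 fell from 89.3 ± 3.81 to 38.9 ± 0.562 CPM (SD, n = 2 in either group). On the log2 scale this is -1.20 (SE 0.10, adjusted p = 2.74e-05 in edgeR), with both treated libraries below both DMSO libraries. Whether the response to the drug differs from that to the NRAS siRNAs was not tested. BTG2 rose from 10.3 ± 0.496 to 15.8 ± 1.25 CPM (SD, n = 2 in either group), with both treated libraries higher. On the log2 scale this is 0.63 (SE 0.18), given without a p-value because its low DMSO level took part in the choice. BTG2 was among the edgeR calls, but nothing is read from that. Leaving out any 1 of these 4 libraries ended the BTG2 call, with values from 0.54 to 0.70. MET at 0.34 (95% interval -0.06 to 0.74, edgeR adjusted p = 0.186), MSRB3 at -0.02 (-0.23 to 0.19, adjusted p = 0.911) and TOMM20 at -0.15 (-0.35 to 0.05, adjusted p = 0.243) did not pass. MET again depended on the DMSO library, at 0.13 without DMSO replicate 1 and 0.62 without DMSO replicate 2, and MSRB3 was at 0.02 without DMSO replicate 2 and 0.03 without ERK inhibitor replicate 1. With this drug 28.0% of all tested genes passed (13.2% higher, 14.8% lower), so that 2 calls among 5 genes are no result about these genes as a group.

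**Figure D3:**
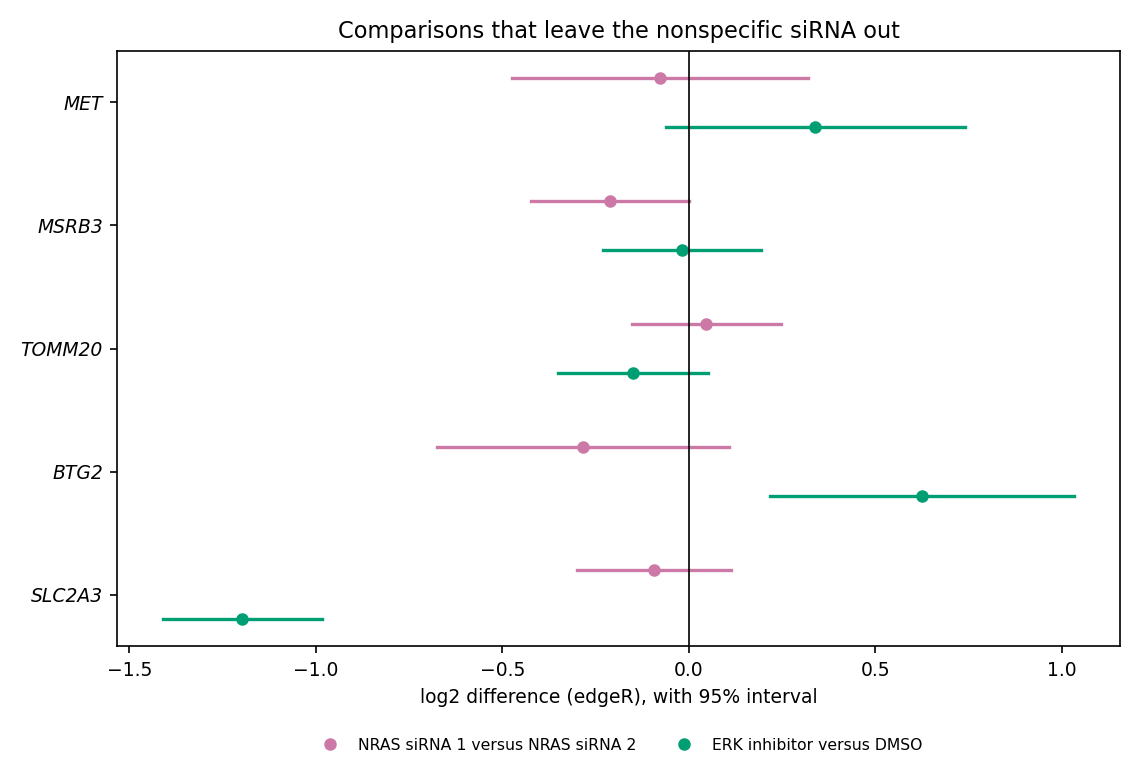
Log2 difference (horizontal axis) with its 95% interval for each gene between both NRAS siRNAs and between the ERK inhibitor and DMSO. All 5 intervals between the siRNAs include 0, and with the inhibitor SLC2A3 lies at -1.20 and BTG2 at 0.63.

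Relatives and partners of the 5 genes were taken from lists written with earlier results of these data known. In nonspecific siRNA against DMSO, edgeR called 0 members of each list, and with 0.379% of all tested genes called, lists of this size would hold few or none in any case. DESeq2 called 361 genes in all in this comparison, 235 higher and 126 lower. The share of all genes at an unadjusted p of 0.05 was not counted. Unadjusted list counts, here and below, thus have no baseline, and nothing is read from them. In MET receptor signalling, 0 of 22 tested genes passed, with a median log2 difference of 0.09 against -0.01 for all genes, 3 higher and 3 lower at an unadjusted p of 0.05, and 0 by DESeq2. Among methionine sulfoxide reductases with the thioredoxin system it was 0 of 19, with a median of -0.06, 0 at an unadjusted p of 0.05 and 0 by DESeq2. Mitochondrial import gave 0 of 29, with a median of -0.09, 2 lower at an unadjusted p of 0.05 and 0 by DESeq2. The BTG/TOB and CCR4-NOT list gave 0 of 17, with a median of 0.03, 3 higher and 2 lower unadjusted, and 0 by DESeq2. Glucose transporters gave 0 of 9, with a median of 0.04, 1 higher unadjusted and 0 by DESeq2.

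No close relative passed between the controls. SEPX1 (now MSRB1), MSRB2 and MSRA, the other methionine sulfoxide reductases, differed between nonspecific siRNA and DMSO by -0.15 (SE 0.12), -0.30 (SE 0.21) and -0.17 (SE 0.18). For the import receptors and pore TOMM22, TOMM70A and TOMM40 the values were -0.14 (SE 0.12), -0.11 (SE 0.09) and -0.13 (SE 0.17). BTG1 and BTG3, which belong to the family of BTG2, stood at 0.17 (SE 0.10) and 0.31 (SE 0.14), and TOB1 and TOB2 at 0.29 (SE 0.11) and 0.24 (SE 0.09). SLC2A1, which encodes the widespread transporter GLUT1, was at -0.19 (SE 0.15). The smallest edgeR adjusted p among these was 0.322, for TOB1. TOMM20L, with 0 to 5 counts per library, and MST1R, the receptor most like MET, with 1 to 6, were too low to be tested.

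SLC2A14, the near-identical neighbour of SLC2A3 in the transporter family, had a like course at a much lower count. It was at 1.63 and 1.71 CPM in DMSO, at 2.64 to 3.68 CPM in the 6 siRNA libraries and at 0.723 and 0.955 CPM with the ERK inhibitor. Its difference between nonspecific siRNA and DMSO was 0.96 (SE 0.24, edgeR adjusted p = 0.121), and with the ERK inhibitor it fell by 0.98 (SE 0.27, adjusted p = 0.0235). Both genes are uncertain here, because 23.0% of the 50-base windows of the SLC2A3 transcript also occur in SLC2A14 in GENCODE 29, and reads without a unique alignment were not counted to genes. For TOMM20, 5.72% of windows are shared with 4 other genes, among them the copy TOMM20P4. MSRB3 shared 1.15%, MET 0.0456% and BTG2 none, so their counts come almost wholly from sequence of their own. In GENCODE 29, MSRB3 overlaps 3 genes, 2 of them on the opposite strand and none of them a row of the count table, and TOMM20 holds the small nucleolar RNA gene SNORA14B, which is one.

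Against the nonspecific siRNA and with the drug, some list members were called, and each count is to be read beside the share of all tested genes. That share was 0.894% higher and 1.17% lower with NRAS siRNA 1, 2.59% and 3.84% with NRAS siRNA 2, and 13.2% and 14.8% with the ERK inhibitor. In MET receptor signalling 1 gene was higher and 1 lower of 22 with NRAS siRNA 1, 2 higher with NRAS siRNA 2, and 5 higher and 4 lower with the ERK inhibitor. HGF, the ligand of MET, had 2 and 4 counts with the nonspecific siRNA, 1 and 2 in DMSO, 54 and 15 with NRAS siRNA 1, 16 and 14 with NRAS siRNA 2, and 24 and 36 with the inhibitor. It passed with NRAS siRNA 1 (edgeR adjusted p = 0.0430) and with the ERK inhibitor (adjusted p = 0.00540) but not with NRAS siRNA 2 (adjusted p = 0.137), and counts this low give no firm size. GAB1, the docking protein that MET phosphorylates, rose by 0.54 (SE 0.14, edgeR adjusted p = 0.0446) with NRAS siRNA 2 and by 0.89 (SE 0.14, adjusted p = 0.00125) with the drug. With NRAS siRNA 1 it was at 0.52 (SE 0.14, edgeR adjusted p = 0.0799). GAB1 overlapped between the controls, 21.3 and 21.5 CPM with the nonspecific siRNA against 25.2 and 21.3 CPM in DMSO. CBL, the ubiquitin ligase that turns MET over, fell by 0.50 (SE 0.08, edgeR adjusted p = 0.0138) with NRAS siRNA 1 and by 0.34 (SE 0.08, adjusted p = 0.0115) with the inhibitor. With NRAS siRNA 2 it was at 164 and 165 CPM, above 153 and 156 CPM with the nonspecific siRNA, and both NRAS siRNAs differed by -0.59 (SE 0.08, edgeR adjusted p = 0.0133).

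In the other lists, BTG3 fell by 1.78 (SE 0.15, edgeR adjusted p = 0.000766) with NRAS siRNA 2, to 16.2 and 20.3 CPM from 57.7 and 67.9 CPM with the nonspecific siRNA. With NRAS siRNA 1 it stood at 44.8 and 54.6 CPM, close to 52.4 and 48.9 CPM in DMSO, and it was the 1 gene of its list that differed between both NRAS siRNAs. With the ERK inhibitor 6 of the 17 genes of that list were lower and 0 higher, where 14.8% of all tested genes were lower, and BTG3 fell by 0.54 (SE 0.14, edgeR adjusted p = 0.0195). Mitochondrial import had 1 of 29 genes lower with NRAS siRNA 1, 3 with NRAS siRNA 2 and 9 with the ERK inhibitor, with none higher, against 1.17%, 3.84% and 14.8% of all tested genes lower. TOMM34, a cytosolic import helper, was lower than with the nonspecific siRNA by 0.71 (SE 0.12) and 0.64 (SE 0.12) with siRNA 1 and siRNA 2. TOMM20 was higher in these comparisons, but against DMSO it lay at -0.04 and -0.09. The level of TOMM34 in DMSO is not given here. Among thioredoxin system genes TXNIP rose by 0.92 (SE 0.22) with NRAS siRNA 2, and TXN, thioredoxin itself, fell by 0.64 (SE 0.13) with the drug. Glucose transporters had 0 of 9 called with either NRAS siRNA in edgeR, and 3 higher and 1 lower with the ERK inhibitor, the latter SLC2A14, where 28.0% of all tested genes were called.

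Programmes in which SLC2A3 and BTG2 are commonly listed were read the same way. Hypoxia and glycolysis genes gave 0 of 27 in nonspecific siRNA against DMSO, with a median of 0.01, 3 higher at an unadjusted p of 0.05 and 1 by DESeq2. With the ERK inhibitor 12 were lower and 3 higher, against 14.8% and 13.2% of all tested genes, among them LDHA, lactate dehydrogenase, at -0.99 (SE 0.09). With NRAS siRNA 2 it was 5 lower, against 3.84% of all tested genes, such as PFKP at -1.12 (SE 0.19), and with NRAS siRNA 1 edgeR called 0 of 27. For p53 targets 0 of 22 passed in nonspecific siRNA against DMSO, with a median of 0.15, 5 higher unadjusted and 1 by DESeq2. With the inhibitor 2 were higher and 6 lower, so 8 of 22 where 28.0% of all tested genes were called, among them TP53INP1, a stress protein, at 1.18 (SE 0.23) and GADD45A, a growth arrest gene, at -1.40 (SE 0.23).

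Genes of the response to double-stranded RNA and interferon, which transfected RNA can trigger, were looked at because BTG2 and SLC2A3 were high in all siRNA libraries. In nonspecific siRNA against DMSO edgeR called 0 of 27, and the median was 0.49 against -0.01 for all genes. At an unadjusted p of 0.05, 15 were higher and 0 lower. Without a share of all genes to set beside them, nothing is read from these counts. DESeq2 called 3 higher, where it called 235 genes higher in all. The summed level of the list was 850 to 871 CPM with the nonspecific siRNA, 762 to 781 with NRAS siRNA 1 and 841 with NRAS siRNA 2, against 609 to 734 in DMSO. ERK inhibitor libraries, which had no siRNA, reached 819 to 821 CPM. The list's part in the levels of BTG2 and SLC2A3 was not tested.

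Genes whose course over the 10 libraries was most like that of each gene were found by Pearson's r on log2 CPM among 11229 genes of at least 5 CPM on average. For MET these included RCHY1 (r = 0.968) and NBPF1 (r = 0.961), for MSRB3 they were RBPJ (r = 0.972), LZTFL1 (r = 0.967) and ISOC1 (r = 0.966), and for TOMM20 PTPMT1 (r = 0.982), BOD1 (r = 0.972) and NRBF2 (r = 0.969). All 8 had their lowest group mean with the nonspecific siRNA. PTPMT1, a mitochondrial phosphatase, averaged 15.1 CPM there against 28.8 to 34.2 CPM in the other groups. RBPJ, the DNA-binding factor of NOTCH signalling, averaged 32.8 CPM against 56.4 to 60.2 CPM. For RCHY1, a ubiquitin ligase, the gap was smaller, 18.7 CPM against 24.7 to 27.7 CPM.

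Most like BTG2 were ZNF385A (r = 0.967), UNKL (r = 0.962) and RND1 (r = 0.961), and most like SLC2A3 were KIAA1467 (r = 0.993), UHRF1BP1 (r = 0.987) and ZBTB43 (r = 0.982). The first 3 had their lowest mean in DMSO and the last 3 with the ERK inhibitor, as the genes they resemble do. RND1, a small GTPase, averaged 3.34 CPM in DMSO and 5.33 to 7.43 CPM with the siRNAs. KIAA1467 averaged 21.0 CPM with the inhibitor, 31.5 CPM in DMSO and 40.9 to 47.0 CPM with the siRNAs. These genes were selected for likeness in the same libraries, so the r values describe and test nothing.

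**Figure D4:**
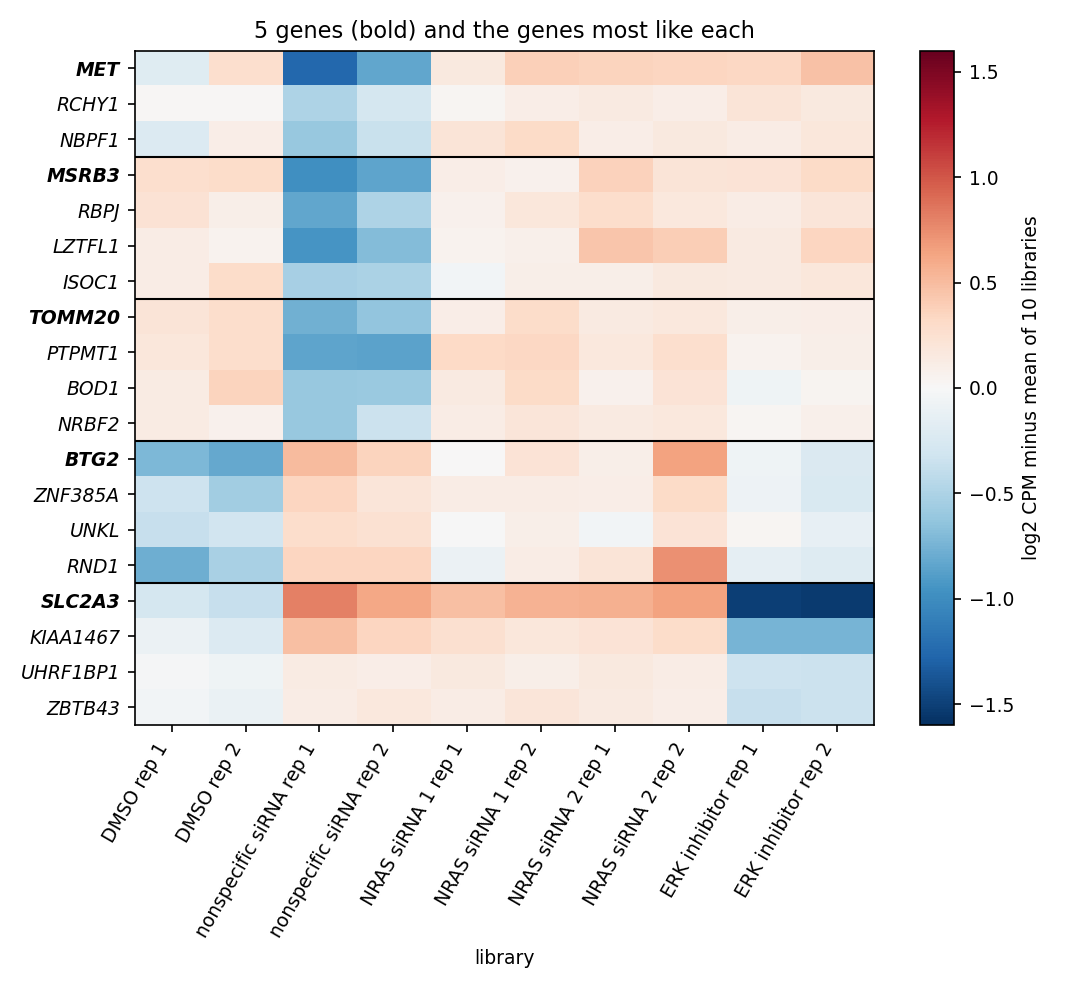
Log2 CPM of each of the 5 genes (bold) and the genes most like it (2 for MET, 3 for the others), minus the gene's mean over 10 libraries (colour), by library. The rows of MET, MSRB3 and TOMM20 and their neighbours are lowest in the 2 nonspecific siRNA libraries, those of BTG2 in DMSO and those of SLC2A3 with the ERK inhibitor.

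Library totals ran from 23224063 to 30768970 gene counts, and the lowest count of any of the 5 genes was 207, for MET. NRAS itself was at 220 and 272 CPM with the nonspecific siRNA and at 48.0 to 52.4 CPM in the 4 libraries of both NRAS siRNAs, which fits their labels. Of 15 muscle lineage markers only 8 were abundant enough to be tested. PAX3, DES, FGFR4 and NCAM1 had at least 258 counts in every library, but the muscle regulator MYOD1 had 0 to 5, MYOG 0 to 3 and MYF5 0. The cell line is named from the labels, and these regulators do not bear out the muscle features given at the start. With the ERK inhibitor edgeR called 1 of the 8 higher, CDH15 at 3.5 (SE 0.44), and 1 lower. Markers of other cell types summed to 5.98 to 8.44 CPM over 14 genes in every library, and 4 of the 14 could be tested. CD68 had 50 to 127 counts and EPCAM 39 to 77, whereas PTPRC had 1 to 5 and PECAM1 0 to 4. Between the controls the 4 had a median log2 difference of 0.61, against -0.01 for all genes. Of them, 0 were called by edgeR or DESeq2 and 0 passed at an unadjusted p of 0.05. With the ERK inhibitor the median was 1.13, against 0.0007 for all genes. In edgeR 2 of the 4 were higher and 1 lower, where 13.2% and 14.8% of all tested genes were. The part of these markers in the levels of the 5 genes was not tested.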

How the data were processed

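The authors deposited raw counts per gene symbol, all whole numbers, without normalization. Per the submitters' processing notes bcl2fastq, TopHat2, SAMtools and HTSeq were used with hg19 and GRCh37. For versions, annotation and strand setting: not given in the sources used here. The 10 library files matched the 10 columns of the series table. In each, 5 category lines naming no gene (38.3 to 39.4% of reads, of which 27.0 to 28.9 percentage points were not uniquely aligned) were left out. Replicates differed by 13.8 to 26.8 times the degrees of freedom in a chi-square comparison, which is above counting noise. That does not show separate cultures. All libraries were kept.

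Counts were fitted with edgeR 4.0.16 (R 4.3.3; glmQLFit, glmQLFTest, TMM, filterByExpr at a minimum count of 10) over all 10 libraries, with Benjamini-Hochberg adjustment over 14761 genes and a threshold of 0.05. The fit was tested on simulated data. Members and lists were chosen with earlier results of these data known. Besides the 5 genes, the text names close relatives, the 3 genes most like each (1 of those for MET is not reported here), NRAS, cell markers and up to 4 called genes per list and comparison from 5 CPM; TOMM20P4 and SNORA14B are named as annotation. The 5 genes were to be tested between both NRAS siRNAs, but those values are given without a test, since both groups took part in the choice. The planned p-value of BTG2 with the ERK inhibitor is left out because its DMSO level took part too. Alternatives were other scalings, no filter, DESeq2 1.42.0, only the groups compared, the replicate number as a block, and each library left out. Intervals cover the spread between libraries. Sequences came from RefSeq (GRCh38.p14) and GENCODE 29, which are of another build than the counts.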

Additional observations from a re-analysis of the deposited data

How the results depend on the processing

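With 2 libraries a group, the number of genes called depends strongly on the settings, and some values of the 5 genes depend on single libraries. In nonspecific siRNA against DMSO, 56 genes became 283 without the filter, 446 with the replicate number as a block, 12 with only the groups compared, 361 with DESeq2 and 6 to 12 with 1 library left out. For NRAS siRNA 1 against the nonspecific siRNA, 305 became 785, 1280, 45, 757 and 28 to 165 in the same order, and for NRAS siRNA 2, 949 became 1690, 2815, 225, 1626 and 53 to 1144. Between both NRAS siRNAs, 63 became 120 with the block, 28 with only the groups compared, 139 with DESeq2 and 6 to 18 with 1 library left out. With the ERK inhibitor, 4128 became 1875 to 3298 with 1 library left out. The cause of these changes was not tested, beyond the smaller number of libraries where some were left out. The labels do not say that replicate numbers pair libraries, and deviations of same-numbered libraries had r from -0.08 to 0.68 between groups. The block changed no call of the 5 genes between the ERK inhibitor and DMSO.

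With 1 library left out, where a lone library is assumed to vary like the other groups, MSRB3 ran from -1.25 to -1.13 in nonspecific siRNA against DMSO. Against the nonspecific siRNA, SLC2A3 ran from -0.30 to -0.077 with NRAS siRNA 1 and from -0.20 to 0.0070 with NRAS siRNA 2. With NRAS siRNA 2, MET ran from 1.19 to 1.61, TOMM20 from 0.80 to 0.92 and BTG2 from -0.34 to 0.21. Against DMSO, MET ran from -0.0025 to 0.49 and MSRB3 from -0.21 to -0.15 with NRAS siRNA 1, where MSRB3 was at -0.17 without the filter. With NRAS siRNA 2 the ranges were 0.075 to 0.56 for MET, -0.066 to 0.10 for MSRB3, -0.13 to -0.032 for TOMM20 and 0.87 to 1.42 for BTG2. BTG2 with the ERK inhibitor ran from 0.54 to 0.70 and lost its call each time. Of 350 values of the 5 genes under an alternative, 333 counted as unchanged, 13 moved and 4 lost a call, and no called value changed sign. Unchanged meant a shift within 1 SD between replicates. Between both NRAS siRNAs and with the ERK inhibitor it meant the same side of the threshold, even where an uncalled value changed sign.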
